A study of Mus musculus with 9 samples.

Results

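The Tcl1 gene cluster is a run of 6 related genes on mouse chromosome 12, namely Tcl1, Tcl1b1, Tcl1b2, Tcl1b3, Tcl1b4 and Tcl1b5. They were taken by gene name from the deposited matrices, and all 6 were among the 28052 genes listed there and all 6 passed the filter on low counts. Their transcripts were compared among growth-phase oocytes of 3 sex chromosome complements, XX, XO and XY, with 3 pools of each. Each pool held 30 oocytes isolated from mice at 18 days post partum, 10 of them 50 to 55 µm and 20 of them 55 to 60 µm in diameter. B6.YTIR males were the fathers of the XY females and of the XX females from the same litters. They carry a Mus musculus domesticus Y chromosome on the C57BL/6J (B6) background and were mated to B6 females. XO females came from Paf carrier males, a stock from C3H/HeSnJ backcrossed to B6, mated to B6 females. The labels name all animals C57BL/6, but the XO oocytes thus came from another cross, so the missing second sex chromosome and the parental stock cannot be told apart in any comparison with XO. How many animals gave each pool is not given in the sources used here.

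TCL1 proteins are small cytoplasmic proteins without enzyme activity that bind the pleckstrin homology domain of the kinase AKT and raise its activity. The founder gene was found through T-cell leukemia, where it is switched on by chromosome rearrangements. In the mouse, Tcl1 and the neighbouring Tcl1b genes are known as maternal transcripts of the oocyte and early embryo, and females without Tcl1 have impaired fertility because their embryos fail during cleavage. A more distant relative, Mtcp1, lies outside the cluster on the X chromosome.

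Transcripts were counted with Smart-seq3, a full-length method in which a unique molecular identifier (UMI) at the 5′ end marks each copied RNA molecule, so that 1 molecule counts once whatever its length. Gene UMIs ranged from 2130145 to 3157338 per pool and artificial ERCC spike-in RNAs took 0.204% to 0.862% of UMIs. Levels below are normalized CPM, in which the UMIs of a gene are scaled to the gene UMIs of its pool times a factor from the ERCC spike-ins. They sum to 802037 to 990044 over all genes in the XX and XY pools and to 1181293 to 1422594 in the XO pools, because the 3 XO pools had the smallest factors. In a bulk pool, fewer copies of an RNA in every oocyte and fewer oocytes that hold it cannot be told apart. The pool labelled XO1 stood apart from XO2 and XO3: it had the fewest genes detected, 18334, and its deviations from the XO mean went with those of XY1, XX1 and XX2. The calls of the main edgeR comparisons with XO were therefore repeated without XO1. The paper's own check, a heatmap of highly expressed and variable genes, names other pools: XX1, XO2 and XY1 were less like their fellow replicates there. Changes are given below, for the gene lists mostly as counts without every name.

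The best known markers of the oocyte varied in level. The zona pellucida gene Zp2 averaged 16470, 12000 and 13770 normalized CPM in XX, XO and XY oocytes, and the summed level of the 12 oocyte markers, of which Zp2 was a large part, lay between 18820 and 43510. Gdf9, Bmp15, Ooep, Nlrp5, Dppa3 and Oosp1 had 234 or more in every pool, whereas Zp1 and Zp3 went down to 14.0 and 12.4 in XO1, Figla had 229 UMIs in all and 0.518 in XO1, and Mos had 56 UMIs in all. Granulosa cell markers summed to 50.4 to 94.8, with no UMI listed for Foxl2, Amh or Hsd17b1 and most of the rest from Nr5a2 and Cyp19a1. Theca and stromal markers summed to 0.305 to 3.92. Of the 9 lymphoid markers, Ptprc, Cd79a, Cd3d and Cd3e had no UMI listed, and Ms4a1 gave 854 of the UMIs found, against 5 for Cd4 and 1 each for Cd79b and Cd8a. Lymphoid cells are the other known site of Tcl1, and their common marker Ptprc was at 0 in all 9 pools.

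The cluster spans chr12:105146014-105222793 (GRCm38), or 76.8 kb, in the annotation deposited with the values. Tcl1b2, Tcl1b1, Tcl1b5, Tcl1b3 and Tcl1b4 follow each other on the plus strand, and Tcl1 closes the row on the minus strand. Each gene has 4 exons in its representative transcript, with coding lengths of 348 to 366 bases. No other gene of the matrices lies inside the cluster. The coding sequences of the Tcl1b genes were 75.0% to 88.3% identical to each other over the 10 pairs, while Tcl1 was 61.6% to 65.8% identical to them. Despite this likeness, windows of 100 bases shared word for word with another gene made up at most 9.2% of a transcript (Tcl1b2), against 9.1% for Tcl1b3, 1.5% for Tcl1b5, 0.1% for Tcl1b1 and none for Tcl1b4 and Tcl1. None of those windows began in the first 150 bases of a transcript, the side from which the UMIs were read. The authors' handling of reads that match several genes is not given in the sources used here, so a small exchange of reads between Tcl1b2, Tcl1b3 and Tcl1b5 was not tested.

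The promoters divide the family in the same way, and 4 of them are shown. They are RefSeq windows (GRCm38.p6) of 300 bases, from 250 before to 50 after the annotated start, written 5′ to 3′ on the strand of the gene. In Tcl1, at chr12:105222688-105222987 on the minus strand, capitals mark 2 GC boxes, read here as CCGCCC. In Tcl1b1 (chr12:105159454-105159753), Tcl1b2 (chr12:105146769-105147068) and Tcl1b3 (chr12:105190795-105191094), all on the plus strand, capitals mark a run of 25 bases that all 5 Tcl1b promoters share.
Tcl1: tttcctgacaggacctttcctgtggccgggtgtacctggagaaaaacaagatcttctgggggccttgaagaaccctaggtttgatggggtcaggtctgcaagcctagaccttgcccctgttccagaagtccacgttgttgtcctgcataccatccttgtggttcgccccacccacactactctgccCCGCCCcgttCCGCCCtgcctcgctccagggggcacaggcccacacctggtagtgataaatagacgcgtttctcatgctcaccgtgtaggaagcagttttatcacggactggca
Tcl1b1: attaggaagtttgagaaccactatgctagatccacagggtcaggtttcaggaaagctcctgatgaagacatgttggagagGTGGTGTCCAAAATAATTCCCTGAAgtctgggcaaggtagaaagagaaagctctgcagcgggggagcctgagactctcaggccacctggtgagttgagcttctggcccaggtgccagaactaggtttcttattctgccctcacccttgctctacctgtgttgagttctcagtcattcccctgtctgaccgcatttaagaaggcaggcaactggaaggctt
Tcl1b2: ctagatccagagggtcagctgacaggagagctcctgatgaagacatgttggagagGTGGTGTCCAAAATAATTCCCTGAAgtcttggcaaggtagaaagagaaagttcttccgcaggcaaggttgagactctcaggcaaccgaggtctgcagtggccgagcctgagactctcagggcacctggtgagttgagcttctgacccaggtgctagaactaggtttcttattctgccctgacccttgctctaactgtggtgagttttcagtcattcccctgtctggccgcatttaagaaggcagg
Tcl1b3: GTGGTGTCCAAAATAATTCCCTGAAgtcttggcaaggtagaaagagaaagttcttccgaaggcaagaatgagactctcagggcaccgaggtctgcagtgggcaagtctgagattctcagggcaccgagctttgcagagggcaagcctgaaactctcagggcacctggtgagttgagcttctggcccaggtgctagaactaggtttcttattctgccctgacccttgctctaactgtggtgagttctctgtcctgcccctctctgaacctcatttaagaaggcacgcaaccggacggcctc

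The shared run was found, on either strand, in 5 of 32851 RefSeq promoter windows, and those 5 belong to the Tcl1b genes. Counted from the annotated start, it begins at position -250 in Tcl1b3, -195 in Tcl1b2, -182 in Tcl1b4, -170 in Tcl1b1 and -156 in Tcl1b5. Aligned over 204 to 287 bases, the Tcl1b promoters were 91.3% to 98.6% identical, with Tcl1b2 and Tcl1b4 the closest pair. No stretch over 28 bases of the Tcl1 promoter aligned with any of them. The GC box GGGCGG, searched on both strands, occurred 2 times in the Tcl1 window and in no Tcl1b window, where 35.7% of all windows hold it. The E-box CANNTG occurred 1 time in Tcl1 and 2 or 3 times in each Tcl1b window, where 72.3% of all windows hold it. The element known for the oocyte factor NOBOX (TAATTG or TAATTA, in 12.4% of windows) and the TATA box TATAAA (in 13.6%) were in none of the 6. CG dinucleotides numbered 11 in the Tcl1 window and 2 to 6 in the Tcl1b windows, against a median of 7 over all windows. These matches describe letters only and show neither binding nor its absence. Transcript levels did not divide as the promoters do. In XX oocytes Tcl1b5 averaged 67.4 normalized CPM, near Tcl1 at 81.7, whereas Tcl1b1 averaged 2438. A link between promoter and level was not tested.

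Tcl1b1 was the most abundant member, with 44581 UMIs over the 9 pools and rank 78 of 28051 genes by mean level. Tcl1b2, Tcl1b4 and Tcl1b3 followed at ranks 174, 195 and 245. Tcl1 ranked 387 through a pair of XO pools alone, being at rank 1437 in XX and 1459 in XY oocytes, and Tcl1b5 was the lowest at rank 2072. Tcl1b2, Tcl1b3 and Tcl1b4 were neighbours in level whose pools overlapped in XX and in XY oocytes, whereas Tcl1b1 stood above them and Tcl1b5 below them in each of the 9 pools. Within single pools Tcl1b2 was above Tcl1b3 in each of the 9 (log2 ratio of UMIs 0.35 to 0.73). The order of either to Tcl1b4 changed between pools. Mean levels per kilobase of transcript gave the same order of the Tcl1b genes in XX oocytes, from 2344 for Tcl1b1 to 63.9 for Tcl1b5, with Tcl1 at 58.4. Tcl1 and Tcl1b5 were not separated by their spread in XX or XY oocytes.

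The values of Tcl1b1, the leading member, were 2668, 2662 and 1984 normalized CPM in XX pools 1 to 3, 1563, 1608 and 1445 in XO pools and 1904, 1794 and 1413 in XY pools. Every XX pool lay above every XO and every XY pool, while XO and XY pools overlapped. The means were 2438 ± 393, 1539 ± 84.3 and 1704 ± 258 (SD, n = 3).

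For Tcl1b2 the pools gave 1063, 936 and 751 for XX, 717, 657 and 679 for XO and 1098, 867 and 730 for XY pools. All XO pools were lower than all XX and all XY pools, and XX overlapped XY. For Tcl1b3 they gave 783, 732 and 562 for XX, 433, 457 and 489 for XO and 818, 676 and 566 for XY pools. The order was that of Tcl1b2, with no overlap between XO and the other genotypes. These 2 genes kept the steadiest ratio of any pair in the cluster: the log2 ratio of their UMIs had an SD of 0.12 over the 9 pools.

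For Tcl1b4 the pools gave 870, 981 and 650 for XX, 328, 753 and 669 for XO and 743, 1107 and 882 for XY pools, so that XO1 was lowest and the other XO pools lay within the range of XX. For Tcl1b5 they gave 63.1, 62.0 and 77.1 for XX, 17.6, 79.6 and 68.9 for XO and 53.5, 87.6 and 86.0 for XY pools. Again XO1 stood below all others, and without it the XO values lay among those of XX and XY. XO3 held 2.04 times the Tcl1b4 level of XO1 and 3.91 times its Tcl1b5 level, against 0.924, 0.947 and 1.13 times for Tcl1b1, Tcl1b2 and Tcl1b3.

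Tcl1 itself behaved differently. Its pools gave 56.6, 54.6 and 134 normalized CPM for XX, 19.2, 833 and 2005 for XO and 32.5, 79.1 and 156 for XY pools, from 159, 156 and 439 UMIs, 37, 1611 and 3552 UMIs, and 70, 243 and 515 UMIs. XO2 and XO3 were above all 6 XX and XY pools, and XO1 was below all of them. XO3 held 105 times and XO2 held 43.5 times the level of XO1, and 0.482% of the 10993 genes tested had a ratio of XO3 to XO1 at least as large. The mean in XO oocytes, 952 ± 998 (SD, n = 3), therefore describes no single pool, against 81.7 ± 45.1 in XX and 89.0 ± 62.1 in XY oocytes.

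**Figure D1:**
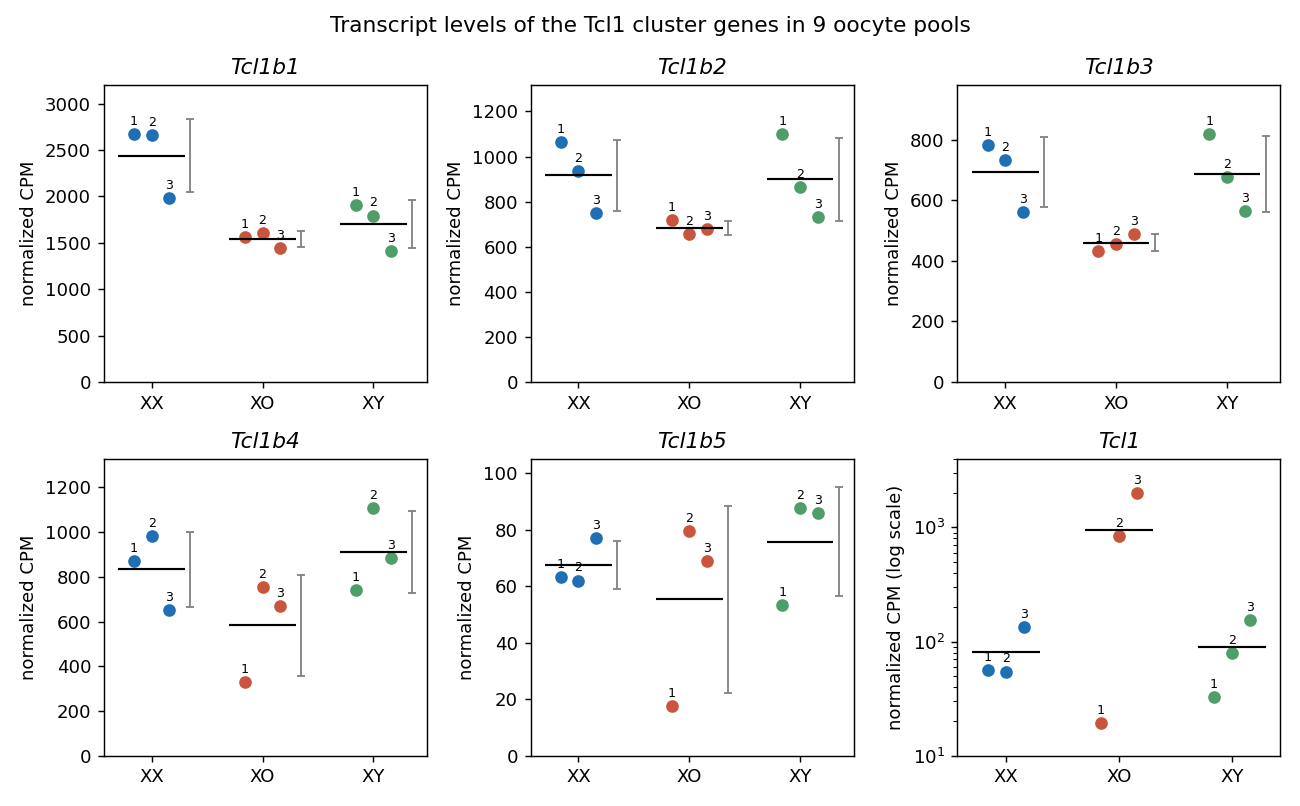
Normalized CPM of each cluster gene in the 9 oocyte pools (points with the replicate number of the pool, black line for the mean, grey bar for ± SD, n = 3; the axis of Tcl1 is logarithmic, without SD bars). Tcl1b1, Tcl1b2 and Tcl1b3 were lower in all XO pools than in all XX pools, whereas Tcl1 ranged from 19.2 to 2005 among the XO pools.

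The coefficient of variation summarises this contrast. Over the XO pools it was 4.44% for Tcl1b2, 5.48% for Tcl1b1 and 6.13% for Tcl1b3, where the median of all genes tested was 48.8%. It was 38.6% for Tcl1b4, 59.9% for Tcl1b5 and 105% for Tcl1. Over the XX pools the 5 Tcl1b genes had coefficients of 12.5% to 20.2%, against a median of 23.5%, and Tcl1 had 55.2%. Ratios between members, which do not depend on the scaling of libraries, told the same. The log2 ratio of Tcl1 to any Tcl1b gene had an SD of 1.88 to 2.36 over the 9 pools. Between Tcl1b1, Tcl1b2 and Tcl1b3 it was 0.12 to 0.25, and for pairs of Tcl1b genes with Tcl1b4 or Tcl1b5 it was 0.38 to 0.76.

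The first comparison, XX against XO oocytes, asks what 1 X chromosome in place of 2 does to transcript levels. In edgeR's quasi-likelihood test, Tcl1 was lower in XX than in XO oocytes, with a log2 fold change of -3.54 (SE 1.24, unadjusted p = 0.0175, Benjamini-Hochberg adjusted p = 0.216 over all genes). It was the only one of the 6 members past the unadjusted threshold of 0.05, which 18.1% of the 10993 genes tested passed, 16.7% lower and 1.40% higher in XX. No gene passed after adjustment in this edgeR comparison, where 1986 passed before it, and over the 3 comparisons of this fit the smallest adjusted p was 0.216 for a member and 0.204 for a listed gene or neighbour. The 5 Tcl1b genes had log2 fold changes of 0.28 to 0.66 and none passed the test. Tcl1b1 had 0.66 (95% interval -0.11 to 1.44, edgeR unadjusted p = 0.0841) and Tcl1b3 had 0.59 (-0.10 to 1.28, edgeR unadjusted p = 0.0849). Tcl1b4, Tcl1b2 and Tcl1b5 had 0.52, 0.42 and 0.28.

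These values stand against a background that leaned to XO. The median log2 fold change of all genes tested was -0.46, so the Tcl1b genes lay 0.74 to 1.12 above it, at percentiles 91.0 to 96.9 of all genes. All 3 XX pools were above all 3 XO pools for 3 of the 6 members, Tcl1b1, Tcl1b2 and Tcl1b3, an order found for 2.79% of the genes tested. The lean depends on the scaling. With TMM factors taken from the genes themselves the median of all genes was -0.12, the share of calls that were higher in XX rose from 7.75% to 35.8%, and Tcl1b1, Tcl1b3 and Tcl1b4 passed the edgeR test with log2 fold changes of 1.02, 0.95 and 0.93 (unadjusted p = 0.0240, 0.0155 and 0.0411, adjusted p = 0.340, 0.326 and 0.384), where 12.2% of all genes passed, 4.38% higher in XX. Tcl1b2 had 0.77 (edgeR unadjusted p = 0.0520) and Tcl1 -3.04 (unadjusted p = 0.0261) there. On the TMM scale all XX pools were above all XO pools for Tcl1b1, Tcl1b2, Tcl1b3 and Tcl1b4, as for 8.00% of all genes tested. With library sizes set by the spike-in totals, the median was 0.42, 84.5% of calls were higher in XX, and Tcl1b1 alone of the members passed (log2 fold change 1.45, edgeR unadjusted p = 0.0398), as did 3.12% of all genes, while Tcl1 had -2.47 (unadjusted p = 0.0969).

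The call of Tcl1 depended on single pools. Without XO1 its log2 fold change was -4.12 and the edgeR adjusted p was 0.00332, in a fit where 4003 genes (36.4%) passed the unadjusted threshold and 33.6% were lower in XX. After adjustment 2671 of the 10993 genes tested still passed in that fit. Without XO3 it was -2.38 (edgeR unadjusted p = 0.0732), and without XX1 and XX2 in turn it was -3.34 (unadjusted p = 0.0613) and -3.32 (unadjusted p = 0.0588). The Tcl1b genes gave 0.68, 0.46, 0.55, 0.23 and -0.14 for Tcl1b1 to Tcl1b5 without XO1, none past the edgeR test, so that the direction of Tcl1b5 rested on that pool.

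**Figure D2:**
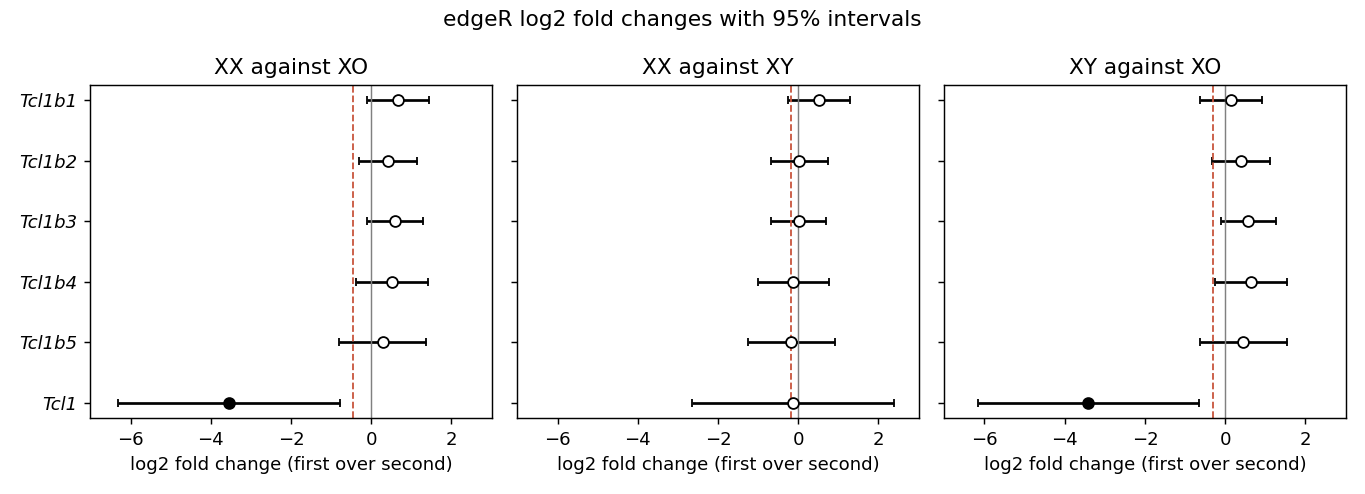
edgeR log2 fold changes of the 6 genes with 95% intervals in the 3 comparisons (filled points have an unadjusted p below 0.05, the dashed line is the median of all 10993 genes tested). Tcl1 passed in XX against XO (-3.54) and XY against XO (-3.42), and every Tcl1b interval included 0.

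In the second comparison, XX against XY oocytes, the littermates differ in the second sex chromosome. No member passed the edgeR test at the unadjusted threshold, which 5.80% of all genes passed, 1.41% higher and 4.39% lower in XX. After adjustment 9 genes (0.0819%) passed. Tcl1b1 came closest with a log2 fold change of 0.52 (95% interval -0.25 to 1.29, edgeR unadjusted p = 0.165), and its XX pools were all above its XY pools, an order found for 4.15% of the genes (8.47% on the TMM scale, where Tcl1b1 was again the one member). For Tcl1b2 and Tcl1b3 the estimates were 0.03 (-0.69 to 0.75) and 0.01 (-0.67 to 0.70), for Tcl1b4 and Tcl1b5 -0.13 (-1.01 to 0.76) and -0.17 (-1.25 to 0.91). Tcl1 had -0.13 with an interval from -2.64 to 2.39, so a difference of several-fold either way was not detectable. With TMM factors Tcl1, Tcl1b4 and Tcl1b5 turned to 0.081, 0.043 and 0.003, and Tcl1b1 passed with DESeq2 (0.66, unadjusted p = 0.0287, where 5.24% of genes passed) but not with TMM factors in edgeR. Further fits that called Tcl1b1 in this comparison are given below.

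In the third comparison, XY against XO oocytes, both have 1 X chromosome and XY has a Y besides. Tcl1 was lower in XY, with a log2 fold change of -3.42 (SE 1.23, edgeR unadjusted p = 0.0202, adjusted p = 0.485), again the single call among the 6 members, where 9.93% of all genes were called, 1.69% higher and 8.24% lower in XY, and 4 (0.0364%) after adjustment. Without XO1 it was -3.99 (edgeR adjusted p = 0.00714), where 31.6% of genes passed the unadjusted threshold and 1407 of 10993 passed adjustment. It was -2.26 without XO3 (edgeR unadjusted p = 0.0862), and without XY1 and XY2 in turn -3.02 (unadjusted p = 0.0637) and -3.34 (unadjusted p = 0.0638). XO and XY pools of equal number deviated together, but XO2 went more closely with XY3 (Pearson r 0.72) than with XY2 (0.28). The main fit did not pair them. A fit with replicate number as blocking term raised the count of genes called from 1092 to 1827, with Tcl1 at -2.89 (edgeR unadjusted p = 0.0157) and still the single member called. The Tcl1b genes had 0.15 to 0.64 against a median of -0.30 over all genes. Tcl1b4 had 0.64 (95% interval -0.25 to 1.53, edgeR unadjusted p = 0.138) and Tcl1b3 0.58 (-0.11 to 1.27, unadjusted p = 0.0907). All XY pools were above all XO pools for Tcl1b2 and Tcl1b3, as for 3.88% of genes. With TMM factors Tcl1b3 and Tcl1b4 passed (0.77 and 0.88, edgeR unadjusted p = 0.0396 and 0.0492), where 9.01% of all genes passed and 3.33% were higher in XY, and the non-overlapping pair was then Tcl1b3 and Tcl1b4, an order found for 6.08% of genes. Without XO1 the Tcl1b values were 0.03 to 0.54, the lowest for Tcl1b5. Both comparisons with XO share the XO pools and so are not independent.

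**Figure D3:**
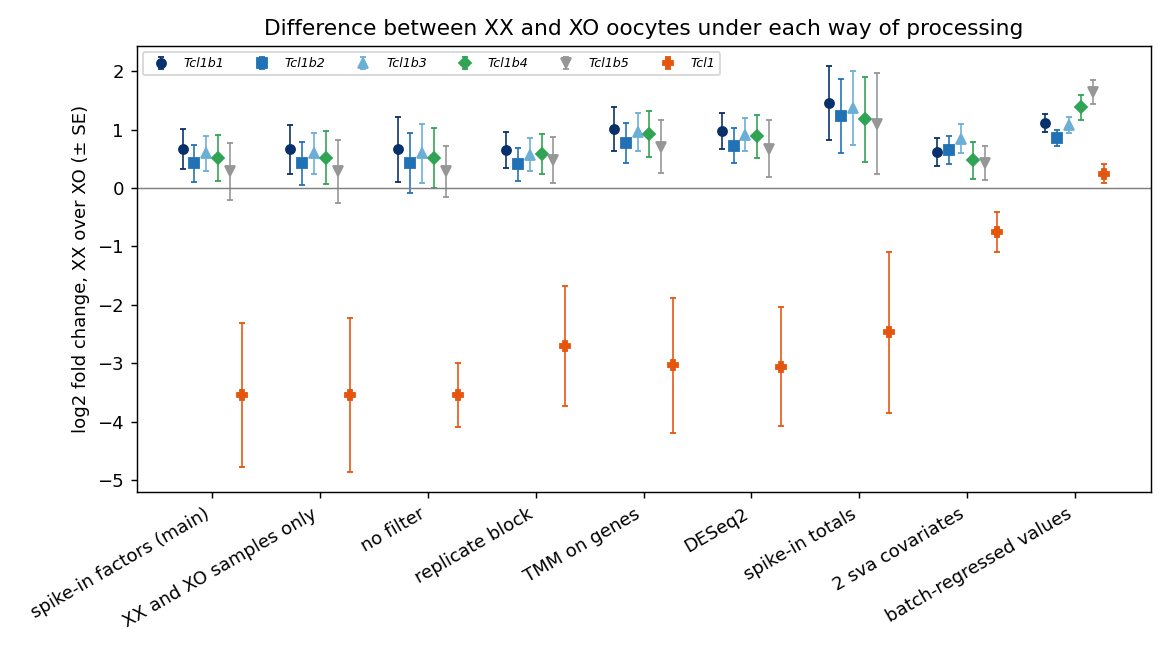
Log2 fold change of each cluster gene in XX over XO oocytes (± SE) under 9 ways of processing the same 9 pools. The 5 Tcl1b genes stayed above 0 in all 9 and Tcl1 below 0 in 8, with 0.25 in the batch-regressed values.

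The authors also deposited log2 values from which estimated batch effects had been removed. In these the Tcl1 difference between XX and XO was 0.25 (limma unadjusted p = 0.137), while all 5 Tcl1b genes were higher in XX by 0.86 to 1.65 (limma, unadjusted p = 2.54e-05 for Tcl1b4, the largest). They come from values in which 44.1% of all genes passed the same limma threshold, 36.3% higher and 7.78% lower in XX. The median log2 fold change of all genes was 0.28 there, and all of the values had been adjusted before the test. With 2 surrogate variables estimated by sva and added to the edgeR fit, Tcl1 stayed lower in XX, by -0.75 (unadjusted p = 0.0395, adjusted p = 0.314), and Tcl1b1, Tcl1b2 and Tcl1b3 were called higher, by 0.61, 0.65 and 0.84 (edgeR unadjusted p = 0.0200, 0.0130 and 0.00303), where 14.3% of all genes passed, 7.06% higher in XX. In XX against XY Tcl1b1 was the only member called, higher in XX, both in the batch-regressed values and in the sva fit. It had 0.66 in the batch-regressed values (limma unadjusted p = 0.000757, adjusted p = 0.0174), where 23.1% of all genes passed and 923 passed adjustment. In the sva fit it had 0.52 (edgeR unadjusted p = 0.00445, adjusted p = 0.0583), where 20.4% of all genes passed. In XY against XO the sva fit put 2 members past adjustment, where 313 of the 10993 genes tested passed it. The 2 were Tcl1 at -1.04 (edgeR adjusted p = 0.0413) and Tcl1b3 at 0.70 (edgeR adjusted p = 0.0462). The unadjusted threshold was passed by 5 members and by 18.2% of all genes. Without the filter on low counts Tcl1 passed adjustment in XX against XO (-3.54, edgeR adjusted p = 7.91e-08) and in XY against XO (-3.42, edgeR adjusted p = 3.49e-07), in fits of 28051 genes where 1607 and 783 passed. The counts and fold changes of Tcl1 were those of the main fit, but its SE was 0.55 in both, against 1.24 and 1.23. These small p-values therefore do not reflect its spread among the XO pools, from 19.2 to 2005 normalized CPM.

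Summed over the 6 genes, the family reached 5503, 5427 and 4158 normalized CPM in XX pools, 3078, 4386 and 5356 in XO pools and 4648, 4610 and 3832 in XY pools. The sums overlapped between all genotypes, with means of 5029 ± 756, 4273 ± 1140 and 4363 ± 461 (SD, n = 3) and a ratio of XX to XO of 1.18, or 1.03 without XO1. No test was made of the sum. The XO pools differed through Tcl1: without it the sums were 5447, 5372 and 4024 for XX, 3058, 3553 and 3350 for XO and 4616, 4531 and 3676 for XY pools. All XO pools then lay below all others, the ratio of XX to XO was 1.49 and that of XY to XO 1.29 (1.43 and 1.24 without XO1). Of single genes tested, 2.79% had all XX pools above all XO pools and 3.88% all XY pools above all XO pools. The order depended on the scaling. Counted per 1000 ERCC UMIs, the Tcl1b sum of XO2 (842) was above those of XY1 (536) and XY2 (762), while all XO pools stayed below all XX pools. Leaving out Tcl1 was chosen after its values were seen. Without Tcl1b1, the most abundant member, the ratio of XX to XO was 0.948, that of XX to XY 0.974 and that of XY to XO 0.973. Without further scaling, the Tcl1b genes made up 0.581% ± 0.0686 of all gene UMIs for XX, 0.264% ± 0.0334 for XO and 0.459% ± 0.0694 for XY pools (SD, n = 3).

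Shares within the family need no scaling of libraries. Tcl1 gave 1.03%, 1.01% and 3.22% of the family's UMIs in XX pools, 0.700%, 1.72% and 4.06% in XY pools, and 0.623%, 19.0% and 37.4% in XO pools. The 95% Wilson intervals of the XO shares, 0.452% to 0.857%, 18.2% to 19.8% and 36.5% to 38.4%, cover counting error only and did not overlap. In each genotype pool 3 had the highest share of Tcl1. Tcl1b1 held 47.7% to 49.1% of the family in XX and 36.9% to 41.0% in XY oocytes, and from 50.8% in XO1 down to 27.0% in XO3. Among the 5 Tcl1b genes alone, Tcl1b1 held 49.3% ± 0.281 for XX, 46.5% ± 4.14 for XO and 39.8% ± 1.41 for XY pools (SD, n = 3), so that every XX pool was above every XY pool by this measure too. Tcl1b4 took 16.8% ± 1.28 of the Tcl1b UMIs for XX, 17.3% ± 5.72 for XO and 21.5% ± 4.69 for XY pools.

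**Figure D4:**
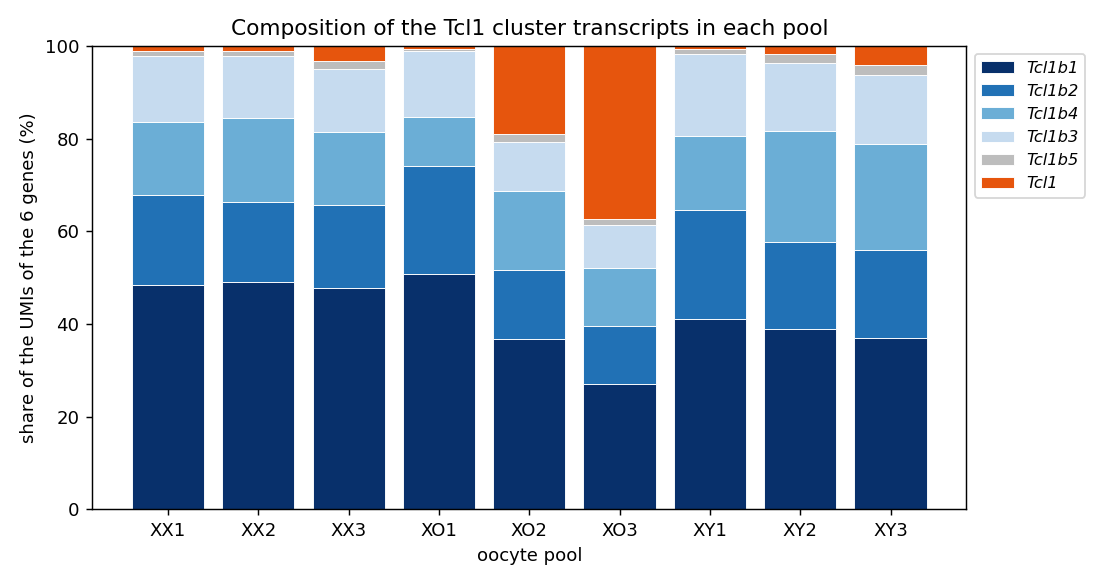
Share of each gene in the UMIs of the 6 cluster genes in each oocyte pool, in percent. Tcl1 took 0.623% to 4.06% in 7 pools and 19.0% and 37.4% in XO2 and XO3.

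Among 5042 genes with at least 50 UMIs per pool on average, those that kept the steadiest log2 ratio of UMIs to Tcl1 over the 9 pools included Cpsf4l (SD 0.15), Zp1 (0.15), Fdft1 (0.24) and Miox (0.27), where the median gene had an SD of 2.07. Zp1 encodes a zona pellucida glycoprotein, Fdft1 squalene synthase and Miox an inositol oxygenase. Zp1 gave 49.2, 48.0 and 112 normalized CPM for XX, 14.0, 759 and 2166 for XO and 26.0, 70.6 and 129 for XY pools, high and low in the same pools as Tcl1. None of these 4 lies on chromosome 12. Their transcripts had a GC content of 51.8% to 55.1% and that of Tcl1 was 52.1%, against 49.0% to 49.7% for the Tcl1b genes and a median of 47.0% over genes tested. The part of base composition in these values was not tested.

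The genes steadiest against the family sum were Ccdc127 (SD 0.12), Eif2b3 (0.13), Klhl28, Gm34045 and AC124450.1 (0.14 each), with a median of 0.61. Eif2b3 encodes a subunit of the translation initiation factor eIF2B. The sum of the 5 Tcl1b genes, a reference chosen after the values of Tcl1 were seen, was followed most closely by Zmat2, AY512915, Enpp5, Trappc1 and Dppa2 (SD 0.12 to 0.15). None of these is among the 5 closest to Tcl1. Dppa2, a gene known from pluripotent cells and early embryos, gave 1202, 1033 and 931 for XX, 574, 836 and 784 for XO and 1042, 1184 and 852 for XY pools.

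**Figure D5:**
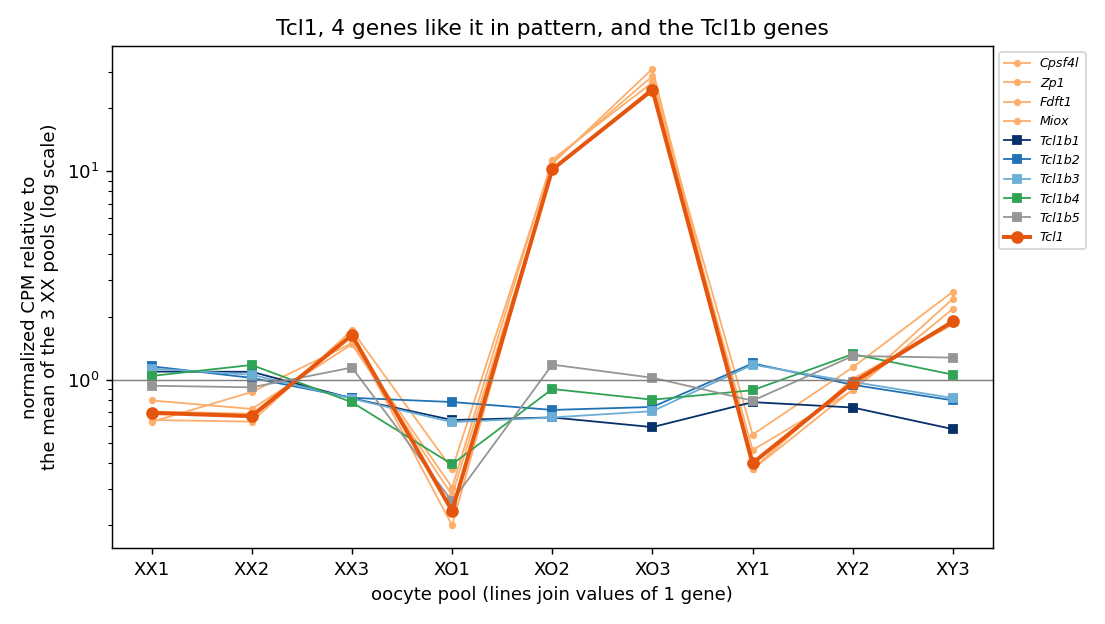
Normalized CPM of Tcl1, of 4 genes among those most like it in pattern and of the Tcl1b genes in each pool, relative to the mean of the 3 XX pools on a log axis (lines join values of 1 gene and imply no order). Tcl1 and its like, such as Zp1, were above their XX means in XX3, XO2, XO3 and XY3, where Tcl1b5, the one Tcl1b gene above its XX mean of 67.4 in all of them, had 68.9 to 86.0 normalized CPM.

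Some oocyte genes with known maternal roles were also highest in XO2 and XO3. Of 11 markers tested, 4 were lower in XX than in XO oocytes at the unadjusted threshold, namely Gdf9, Zp1, Nobox and Ooep, and none was higher, where 16.7% of all genes were lower and 1.40% higher. Of these only Zp1 was lowest in XO1, as Tcl1 was. Gdf9 had 339 normalized CPM there, above the 252 to 319 of the XX pools, and Oosp1, which was not called, was highest there with 9137 against 2494 and 2495 in XO2 and XO3. Gdf9, an oocyte growth factor, had a log2 fold change of -2.11 (edgeR unadjusted p = 0.00722, adjusted p = 0.204) and Nobox, an oocyte transcription factor, -2.85 (edgeR unadjusted p = 0.0104, adjusted p = 0.204). In XY against XO these 4 and Bmp15 were lower, 5 of 11, where 8.24% of all genes were lower. Without XO1 the markers lower were 6 of 11 in XX against XO and 9 of 11 in XY against XO, where 33.6% and 27.0% of all genes were. In XX against XY Bmp15, an X-linked growth factor of oocytes, was higher (1.32, edgeR unadjusted p = 0.00356, adjusted p = 0.408). The summed level of the oocyte markers was 18820 in XO1, 35260 in XO2 and 43510 in XO3, so it moved with Tcl1 among the XO pools although Oosp1 did not, and its part in the Tcl1 values was not tested. Among markers of other cells, Kitl (1.09, edgeR unadjusted p = 0.00637) and Ms4a1 (1.82, edgeR unadjusted p = 0.000445) were higher in XX than in XO oocytes. Ms4a1 was also higher in XX than in XY (1.07, edgeR unadjusted p = 0.00998). In XO1, XO2 and XO3, where Tcl1 went from 19.2 to 833 and 2005, the lymphoid sums were 16.1, 14.5 and 22.0, the granulosa sums 58.5, 59.5 and 68.3, and the theca and stromal sums 1.55, 1.03 and 1.13 normalized CPM.

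TCL1 proteins bind the AKT kinases. Of these, Akt2 averaged 3.36, 4.77 and 4.51 normalized CPM in XX, XO and XY oocytes, and Akt1 had 9 UMIs in all and was not tested. Of 25 genes of the AKT axis (kinases, activators, inhibitors and substrates), 21 were tested, and 2 activators were lower in XX than in XO oocytes. These were Pik3ca, the catalytic subunit of PI3 kinase (-0.82, edgeR unadjusted p = 0.0167, adjusted p = 0.214), and Mtor (-2.24, edgeR unadjusted p = 0.0176, adjusted p = 0.216). That is 2 of 21, where 16.7% of all genes were lower in XX. No gene of the axis passed in XX against XY or in XY against XO oocytes. Without XO1, 7 of 21 were lower in XX against XO, among them Mtor but not Pik3ca (-0.61, edgeR unadjusted p = 0.0535), and 8 of 21 in XY against XO, where 33.6% and 27.0% of all genes were lower. The median log2 fold changes over the 21 genes, -0.50, -0.23 and -0.22, were near those of all genes, -0.46, -0.19 and -0.30.

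Mtor gave 7.12, 2.10 and 7.01 normalized CPM for XX, 5.18, 27.9 and 44.6 for XO and 5.58, 4.56 and 15.1 for XY pools, with XO2 and XO3 above all other pools as for Tcl1. Tsc2, a substrate of AKT and the most abundant gene of the axis, gave 297, 218 and 558 for XX, 146, 1558 and 2006 for XO and 207, 534 and 962 for XY pools and did not pass (-1.79, edgeR unadjusted p = 0.0681), though it did without XO1 (-2.31, edgeR adjusted p = 0.0153). Foxo3, the AKT target that holds primordial follicles dormant, averaged 46.9, 69.2 and 46.9 and did not pass (-0.56, edgeR unadjusted p = 0.175) except without XO1 (-0.89, edgeR adjusted p = 0.0339). In that fit of XX against XO without XO1, 2671 of 10993 genes passed adjustment. Mtcp1, the X-linked relative, had 40 UMIs over the 9 pools, with means of 1.25, 3.06 and 1.42 normalized CPM, and was too low for the test.

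Within 0.5 Mb of the cluster lay 18 other genes, of which 7 were tested. Ak7 and D430019H16Rik were lower in XX than in XO oocytes (-0.93, edgeR unadjusted p = 0.0449, and -1.59, edgeR unadjusted p = 0.0481), Ak7 was lower in XX than in XY (-0.96, edgeR unadjusted p = 0.0342), and none passed in XY against XO. That is 2 of 7 and 1 of 7, where 16.7% and 4.39% of all genes were lower. Without XO1, Ak7 did not pass in XX against XO (-0.82, edgeR unadjusted p = 0.113) and D430019H16Rik passed in both comparisons with XO. D430019H16Rik had 34, 39 and 70 UMIs for XX, 19, 102 and 141 for XO and 30, 58 and 159 for XY pools, again low in XO1. AC140477.1, a processed pseudogene next to Tcl1b2, had 150 UMIs in all and a log2 fold change of 1.22 in XX against XO (edgeR unadjusted p = 0.124). Dicer1, the most abundant neighbour and the enzyme that cuts small RNAs, averaged 890, 1071 and 998 normalized CPM and was not called in any comparison.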

How the data were processed

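RNA of 9 pools of oocytes, 3 each of XX, XO and XY, was sequenced by a modified Smart-seq3. The authors aligned reads with HISAT2 (version not given in the sources used here) in stranded paired mode to GRCm38 with the Gencode transcriptome and counted UMIs at 5′ exons. The deposited counts are UMIs per gene, with 79 ERCC spike-ins, not normalized. The deposited normalized CPM is a signal that the authors scaled by ERCC factors. It was checked to be the counts times 1 constant per sample. The deposited log2 values had batch effects regressed out by the authors.

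Counts were tested in edgeR 4.0.16 (R 4.3.3, limma 3.58.1) by the quasi-likelihood test, two-sided, over all 9 samples with genotype as group, gene UMI totals as library sizes and ERCC TMM factors. filterByExpr kept 10993 genes. Calls are at an unadjusted p of 0.05, with Benjamini-Hochberg adjusted p beside. The script was tested on simulated data with a fixed dispersion for all genes and no effects of pools. That dispersion was below the common dispersion of 0.201 in these data, so the test was an easier case. Intervals are at 95%. Gencode vM21 (release 21) and RefSeq gave transcripts and promoters. The labels call the pools biological replicates, and the p-values of the main fit measure the spread between 3 pools a group.

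Genes named are the 6 members, the 5 with the steadiest log2 ratio (UMIs plus 0.5) to Tcl1 and to the family sum, list genes that were called or most abundant, and neighbours that were called, except that some genes are not reported here. AC140477.1, Dicer1 and Dppa2 were named after their values were seen, and list counts without XO1 were added then. The members and lists were chosen with earlier results of these data known. Same-numbered XO and XY pools deviated together (Pearson r 0.83, 0.28 and 0.77 over genes), but so did XO2 and XY3 (0.72). The main fit had no pairing, and replicate number entered only as a blocking term in an alternative fit. For XX with XO and with XY not every pair was positive. Alternatives were other scalings, DESeq2 1.42.0, sva 3.50.0, no filter, fewer samples and the block.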

Additional observations from a re-analysis of the deposited data

How the results depend on the processing

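The lowest count behind a member was 34 UMIs, for Tcl1b5 in XO1. The genes called in XX against XO numbered 1986, and 343 with spike-in totals, 3953 without a filter and 4848 in the batch-regressed values. In XX against XY they numbered 638, and 1091 with those genotypes only, 2239 with sva covariates, 2542 batch-regressed, 1214 without a filter, 1007 with the replicate block and 284 with spike-in totals. In XY against XO they numbered 1092, and 590 with those genotypes only, 2006 with sva covariates, 4835 batch-regressed, 2735 without a filter, 1827 with the block and 136 with spike-in totals. Leaving out 1 pool gave 905 to 4003, 371 to 1227 and 402 to 3474, with the highest counts without XO1 each time and cluster genes called from 0 to 1, 0 to 0 and 0 to 1. Cluster genes called rose in XX against XO from 1 to 4 with TMM, 4 with sva covariates, 5 with DESeq2 and 5 batch-regressed, where 12.2%, 14.3%, 13.7% and 44.1% of all genes were called, against 18.1%. In XX against XY they rose from 0 to 1 with sva covariates, DESeq2 and batch-regressed values, where 20.4%, 5.24% and 23.1% were called. In XY against XO they rose from 1 to 3 with TMM and DESeq2 (9.01% and 10.2%) and 5 with sva covariates and batch-regressed (18.2% and 44.0%). The block changed no call of a member.

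Tcl1 turned direction to 0.25 in XX against XO and 0.14 in XY against XO batch-regressed. In XX against XY, with no call on either side, Tcl1 turned to 0.29 with sva covariates, 0.089 with DESeq2, 0.11 batch-regressed, 0.18 with the replicate block, 0.60 with spike-in totals and 0.081 with TMM. Tcl1b4 turned to 0.023, 0.006, 0.46 and 0.043 with DESeq2, batch-regressed, spike-in totals and TMM, and Tcl1b5 to 0.56 and 0.003 with spike-in totals and TMM. Leaving out 1 pool, XX against XY ranged from -0.68 to 0.55 for Tcl1, -0.10 to 0.20 for Tcl1b2, -0.11 to 0.16 for Tcl1b3 and -0.26 to 0.037 for Tcl1b4, and Tcl1b5 in XX against XO from -0.14 to 0.64. The family ratio of XX to XO moved from 1.18 to 1.55 with TMM and 1.98 per 1000 ERCC UMIs, and that of XX to XY from 1.15 to 1.86 per 1000 ERCC UMIs. The causes were not tested.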
